A study of Mus musculus with 14 samples.

Results

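The 300 gene bodies with the lowest H3K36me2 scores were taken from 17853 ranked gene bodies in the authors' deposited chromatin table of 22470. Mitochondrial, olfactory and vomeronasal receptor, numbered Gm and Rik symbols were left out, as were rows at 0 in all 3 columns. Members were chosen by the measured H3K36me2 scores themselves: the rest were ranked by the higher of their 2 scores, so that a member had to be low in both columns. All samples were cells derived from a mouse tumor (strain C57BL/6, passages 6 to 8) that carried a guide RNA, a control guide in the sgControl group and one named for NSD3 in the sgNSD3 group. The labels give no other allele or agent, and no tumor type, sex or clone number. RNA was measured in 3 libraries per condition. The 4 H3K36me2, 2 H3K27me3 and 2 IgG samples were of the CUT&RUN type, in which an antibody-tethered nuclease releases the marked nucleosomes. Whether replicate libraries stem from separate cultures is not labelled, and the p-values therefore cover only the spread among these libraries, which may be technical.

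Histone H3 dimethylated at lysine 36 is laid down by NSD family enzymes and others over gene bodies and between genes. Its usual counterpart is H3 trimethylated at lysine 27, the mark that Polycomb repressive complex 2 places over silent genes, and nucleosomes methylated at lysine 36 are poor substrates for that complex. Among the members, 91 had 0 RNA counts in all 6 libraries, 46 had a mean above 0 but below 8 normalized counts, and 163 had at least 8. A normalized count is a read count divided by the size factor of its library.

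Both ends of this range occurred among the lowest scores. The stretches below are the 250 bases before the RefSeq transcript start for the 3 lowest-ranked members with no RNA and for the 3 lowest-ranked members with at least 1000 normalized counts, among those with a RefSeq promoter entry that could be shown. They are shown because members without RNA and members with RNA differed in CpG content, and the CpG dinucleotides are in capitals. Positions are from GRCm38.p6, the assembly that mm10 names, and sequences run 5′ to 3′ on the gene's strand. Rhox2a, a reproductive homeobox gene, lies at chrX:37244742-37244991 on the plus strand. Ang6, an angiogenin-type ribonuclease gene, lies at chr14:44006419-44006668 on the minus strand. That stretch is inside the RefSeq gene span of Ang6, 44001664 to 44011488, so it precedes an inner transcript start. Rhox3a lies at chrX:37249669-37249918 on the plus strand. Akap13, which encodes a kinase anchor protein, lies at chr7:75455284-75455533 on the plus strand. That stretch ends inside the RefSeq gene span of Akap13, which starts at 75455526, so it also precedes an inner transcript start. Hnrnpa0, which encodes an RNA-binding protein, lies at chr13:58128557-58128806 on the minus strand. Ctsd, which encodes the lysosomal protease cathepsin D, lies at chr7:142387828-142388077 on the minus strand.
Rhox2a: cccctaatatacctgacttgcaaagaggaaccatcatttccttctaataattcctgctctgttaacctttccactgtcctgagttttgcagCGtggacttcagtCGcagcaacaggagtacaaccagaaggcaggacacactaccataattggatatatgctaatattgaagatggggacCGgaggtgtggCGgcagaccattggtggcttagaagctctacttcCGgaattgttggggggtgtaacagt
Ang6: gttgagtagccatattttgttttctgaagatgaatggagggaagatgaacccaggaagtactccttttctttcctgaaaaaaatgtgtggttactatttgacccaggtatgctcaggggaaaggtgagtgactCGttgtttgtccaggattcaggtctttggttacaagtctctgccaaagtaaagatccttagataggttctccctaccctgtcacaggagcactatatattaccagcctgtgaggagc
Rhox3a: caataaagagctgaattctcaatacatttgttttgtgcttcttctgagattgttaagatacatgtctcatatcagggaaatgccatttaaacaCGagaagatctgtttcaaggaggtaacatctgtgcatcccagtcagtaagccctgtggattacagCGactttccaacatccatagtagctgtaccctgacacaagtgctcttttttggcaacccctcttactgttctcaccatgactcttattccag
Akap13: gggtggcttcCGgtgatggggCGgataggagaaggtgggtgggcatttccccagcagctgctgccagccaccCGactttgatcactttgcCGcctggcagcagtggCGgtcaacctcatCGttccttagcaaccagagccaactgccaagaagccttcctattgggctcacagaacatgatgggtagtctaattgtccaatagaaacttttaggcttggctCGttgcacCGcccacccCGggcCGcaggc
Hnrnpa0: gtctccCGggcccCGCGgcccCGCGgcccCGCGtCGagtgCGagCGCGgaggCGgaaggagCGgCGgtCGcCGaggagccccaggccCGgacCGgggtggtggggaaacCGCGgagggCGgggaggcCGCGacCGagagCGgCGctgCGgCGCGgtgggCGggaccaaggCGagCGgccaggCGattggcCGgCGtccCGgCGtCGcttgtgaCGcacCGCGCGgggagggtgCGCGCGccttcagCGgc
Ctsd: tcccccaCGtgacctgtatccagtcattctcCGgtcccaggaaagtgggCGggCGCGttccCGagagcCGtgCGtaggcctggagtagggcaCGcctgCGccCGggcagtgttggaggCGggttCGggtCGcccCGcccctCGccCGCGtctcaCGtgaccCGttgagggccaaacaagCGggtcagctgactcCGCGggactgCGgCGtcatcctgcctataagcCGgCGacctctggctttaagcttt
The 3 stretches of genes without RNA held 5, 1 and 2 CpGs in this order, and the 3 of genes with RNA held 10, 46 and 27. The ratio of observed to expected CpGs was 0.36, 0.09 and 0.19 in the former and 0.47, 1.15 and 0.96 in the latter.

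The scores that chose the members are given as a description only. In the authors' deposited table the members ran from -0.267 to 0.0259 in the sample 1 column and from -0.188 to 0.0257 in the sample 2 column. Their medians were 0.000403 and -0.000574, against 0.0773 and 0.134 over all ranked gene bodies. The members were thus gene bodies around 0, and 75 of the 300 were below 0 in both columns. The 3 last inside the 300 were Pnma3, Prp2 and Fancg, and the 3 first outside were Scgb1b3, Tmsb15l and Blzf1. The ranking value was 0.025925 for the last inside and 0.025927 for the first outside, so no gap set the members apart.

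**Figure D1:**
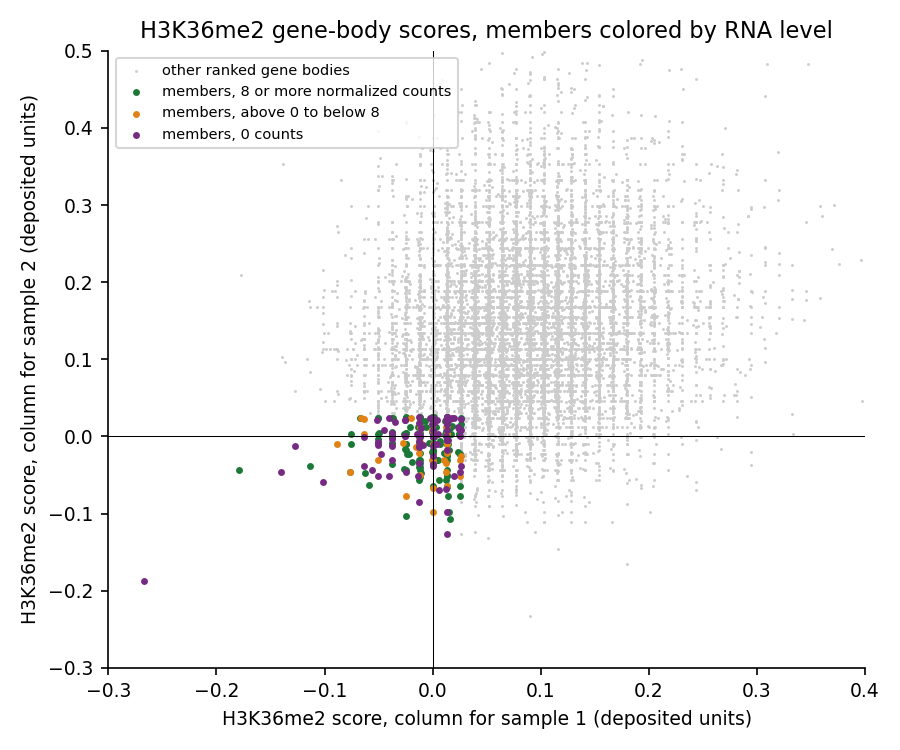
Each point is 1 ranked gene body, with its H3K36me2 score in the sample 1 column on the x axis and in the sample 2 column on the y axis (deposited units), members colored by mean normalized RNA count. The members fill the corner around 0 with no gap to the other gene bodies, AW822073 lies alone at -0.267 and -0.188, and 46 gene bodies fall outside the axes.

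AW822073, a locus without a RefSeq record, had the lowest scores, -0.267 and -0.188, and no RNA counts. It was followed by Rhox2a at -0.102 and -0.0595, and by Sfxn4, a mitochondrial transporter family gene, at -0.0591 and -0.0634. Ang6, Akap13, the histone genes Hist1h4m and Hist1h2ao, Rhox3a, Hnrnpa0 and Csn3, the kappa-casein gene, completed the 10 lowest. Hnrnpa0 was low mainly in the sample 1 column, at -0.179 against -0.0432 in the sample 2 column. The 10 lowest thus held genes known from reproductive tissues and milk beside genes in general use.

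The columns shared few of their lowest gene bodies. Of the 300 lowest in the sample 1 column alone, 36 were members, and of the 300 lowest in the sample 2 column alone, 72. The 300 lowest in sample 1 had a median of 0.113 in the sample 2 column, which did not choose them, against 0.134 over all ranked gene bodies, and 7.67% of them against 3.85% of all were below 0 there. Conversely, the 300 lowest in sample 2 had a median of 0.0645 in the sample 1 column against 0.0773, and 12% against 6.84% were below 0. A low score in one column thus went with a somewhat lower median in the other. The header does not say which libraries enter a column, so no direction between conditions was read from the scores.

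Scores repeated exactly between genes. To 6 decimals, 106 members shared their sample 1 score with another member and 109 their sample 2 score, and 21 shared both. Hist1h4m and Hist1h2ao, neighbors in the histone cluster of chromosome 13, both had -0.0765 and -0.0467. The genes Cphx3, Defa-rs7, Defa26, Duxbl1, Duxbl2, Plac9a and Rbmy stood at 0 in both columns to 6 decimals. Scores near 0 were thus coarse, and the order among members with nearby scores carries little precision.

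Members lay on every autosome, on the X and, with Rbmy alone of 10 ranked gene bodies, on the Y, and among chromosomes with more than 10 ranked gene bodies they were most frequent on the X. Of 701 ranked X-linked gene bodies 44 were members (6.28%), against 254 of 17014 autosomal ones (1.49%). Chromosomes 14, 18 and 7 came next, at 3.37%, 3.23% and 2.81%, and chromosome 9 was lowest, with 4 of 977 (0.409%). The score of the whole X was low: the median X-linked gene body scored 0.0388 and 0.084, against 0.0774 and 0.134 on the autosomes. The X held 14.7% of the members and 3.93% of all ranked gene bodies. That share depended on the ranking: it was 17.7% by the higher rank within columns, but 7% by the mean of the columns, 6% by the sample 1 column and 5% by the sample 2 column. RNA of the Y-linked gene Ddx3y was between 934.9 and 1051 normalized counts per library, and Xist, the RNA that coats an inactive X, was between 0.957 and 6.71. The copy number of each chromosome was not measured, so its part in the scores was not tested.

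**Figure D2:**
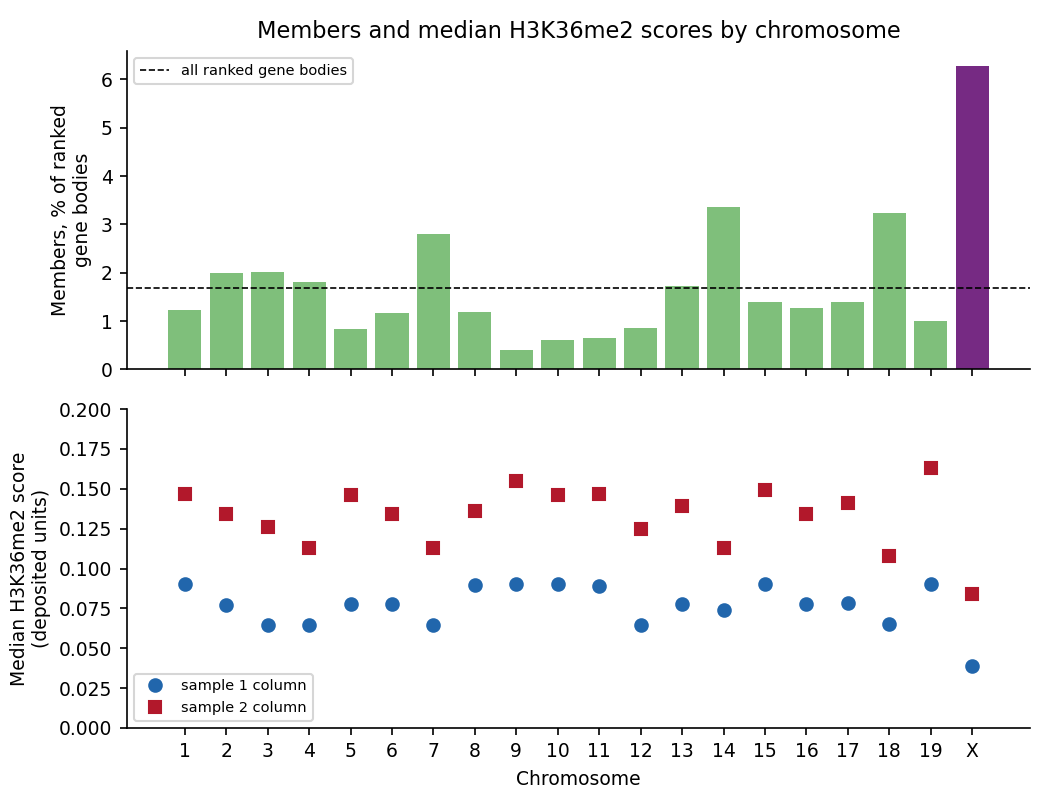
The upper panel gives members as a percentage of ranked gene bodies on each chromosome (dashed line, all ranked gene bodies), and the lower panel gives the median H3K36me2 score of all ranked gene bodies on it in each column (deposited units). Of the chromosomes plotted, the X has the highest share of members, 6.28%, and the lowest medians, 0.0388 and 0.084.

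The X-linked members included reproductive genes without RNA and transcribed genes in general use. Of the 44, 23 had no RNA count, among them Rhox2a, Rhox3a, Rhox4a and Rhox7 of the reproductive homeobox cluster, and Slx and Slxl1, genes of spermatids. The 15 with at least 8 normalized counts included the kinase gene Rps6ka3, at 1429 to 1596 normalized counts, and the ubiquitin-conjugating enzyme gene Ube2a, at 277.9 to 363.7. Ube2a, Upf3b and Akap14 stand beside 3 Rhox members, and together they formed 1 run of 6 members. Members made up 13.1% of the 175 X-linked gene bodies without RNA and 3.93% of the 382 with at least 8 normalized counts.

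Across the genome, members were most frequent among genes with no RNA and among short genes. Members made up 4.35% of 2092 gene bodies with 0 counts, and 1.44%, 1.35%, 1.48% and 1.02% in the bins of above 0 to below 8, 8 to below 100, 100 to below 1000, and 1000 or more normalized counts. Above 0 counts, the share was similar in the bins below 1000 normalized counts and lowest at 1000 or more. With only autosomes, the share in genes with 0 counts was 3.46% and in the highest bin 0.972%. With gene bodies divided by RefSeq gene span into 5 equal bins, from the shortest to the longest, 3.07%, 2.28%, 1.33%, 0.903% and 0.846% were members. The median span was 10076 bases among members and 21101 among all ranked gene bodies. The next 300 gene bodies in the ranking resembled the members in these traits: 26.2% were without RNA against 30.3% of the members, 14.3% lay on the X against 14.7%, and their median span was 13137 bases. Both differences were also present when the properties were crossed: in the shortest 2 bins 5.51% of genes with 0 counts and 2.22% of genes with at least 8 were members, and in the longest 3 bins 2.39% and 0.819%. The scored interval belongs to 1 transcript per gene and may be shorter than the RefSeq span. Reads of near-identical gene copies can be shared or lost, and the part of this in these shares was not tested.

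**Figure D3:**
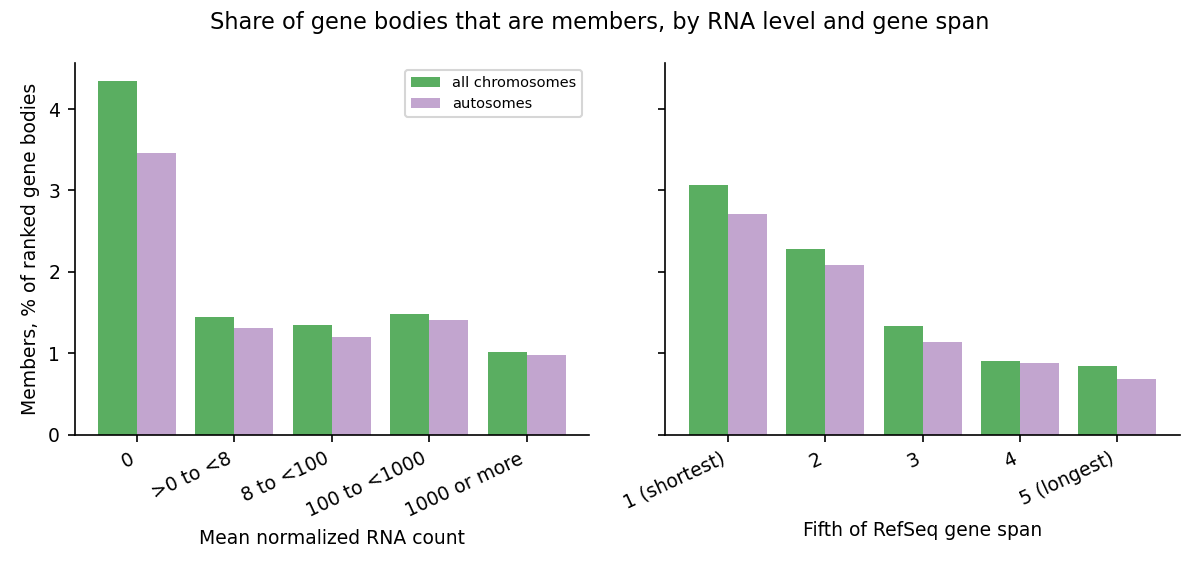
Bars give members as a percentage of ranked gene bodies, by mean normalized RNA count (left) and by bin of RefSeq gene span, 5 equal bins (right), over all chromosomes and over autosomes alone. Genes with 0 counts (4.35%) and the shortest bin (3.07%) hold the largest shares.

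By class, 295 members were protein-coding genes in RefSeq, 2 were pseudogenes, 1 was a T cell receptor segment and 1 a miscellaneous RNA. Symbols of reproductive genes present in many copies on the sex chromosomes were frequent among the members, 7 of 44 ranked (15.9%), against 300 of 17853 ranked gene bodies (1.68%). All 7 were without RNA and lay on the X, where members made up 13.1% of the 175 gene bodies without RNA. Clustered protocadherins, adhesion genes of neurons that share 1 locus on chromosome 18, had 5 of 24 (20.8%). Core and linker histones had 6 of 84 (7.14%) and defensins, antimicrobial peptides, 3 of 51. Among classes of general use, solute carriers had 7 of 381 (1.84%), zinc finger genes 10 of 433 (2.31%), respiratory chain genes 2 of 98 (2.04%) and proteasome genes 2 of 50 (4%). The planned class of Hox, Pax, Nkx and other developmental factors had 1 of 231 (0.433%), Nkx6-2. It left out the Rhox cluster, 4 of 31 of which were members, and the oocyte and early embryo homeobox genes described below. Keratins and their associated proteins had 0 of 106. Of 3 members with a ribosomal protein type symbol, Rpl22 is a ribosomal protein gene, Rpl27-ps3 is a pseudogene and Rps6ka3 encodes a kinase.

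The 6 histone members showed both kinds of gene. Hist1h2bq, Hist1h2ao and Hist1h4m lie within 6 kb of each other (chromosome 13, 21806412 to 21812150, GRCm38.p6), and Hist1h2bf lies apart in the same cluster. H2afz, the gene of the variant H2A.Z, had 1757, 1812 and 1711 normalized counts in sgControl and 1734, 1798 and 1798 in sgNSD3. H2afb2, a testis variant on the X, had no count in any library. RNA of the clustered histone genes was low by comparison: Hist1h2ao had 51.76 to 56.46 normalized counts in sgControl and 39.31 to 58.91 in sgNSD3. Near-identical histone genes can share reads, so their single values are uncertain.

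Among the protocadherin members, Pcdhb1 had no count, and Pcdhb22, Pcdhb21, Pcdhb18 and Pcdhb5 were transcribed. Pcdhb22 had 322.8, 332.1 and 339 normalized counts in sgControl and 300.7, 328.9 and 286.4 in sgNSD3, with overlapping conditions. H3K27me3 scores were above 0 in 4 of the 5 and highest in Pcdhb18, at 0.1. The class as a whole had low H3K36me2 medians, 0.0258 and 0.0752 over its 24 gene bodies. Slc25a2 lies in the same run of members.

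Several other families stood out when the member names were read, and they were grouped after their scores were seen. Major urinary proteins, pheromone carriers made in liver, had 4 of 21 gene bodies among the members. The kallikrein 1-related peptidases of salivary gland had 3 of 13, and secretoglobins and demilune proteins, secreted by glands, 5 of 28. The oocyte and early embryo homeobox genes of the Obox, Duxbl, Cphx and Crxos type had 7 of 11, pancreatic amylases 2 of 4, and the Trim5 and Trim12 type of antiviral genes 3 of 9. All members of these families were without RNA except Crxos1, at 0 to 3.045 normalized counts, and the 3 Trim genes. Trim12c had 176.4 to 207.7 normalized counts, while Trim5 and Trim12a reached at most 2.871. Near-identical copies can share or lose reads, so scores and counts of single copies are uncertain.

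Counted by position, 80 members lay in 32 runs of neighbors, in which each start was within 250 kb of the next. The next 300 gene bodies in the ranking had 73 in 33 such runs, and the 300 at the high end 61 in 26. Runs of neighbors were thus present in all 3 of these sets. The longest runs of members were 6 at the protocadherin locus, 6 beside the Rhox cluster and 5 at the Duxbl locus of chromosome 14.

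The CpG content of member promoters differed with RNA. RefSeq promoter entries, 250 bases before to 50 after a start (the first entry per gene), were found for 236 of the 300 members. The median number of CpGs was 3 in the 70 without RNA and 19 in the 128 with at least 8 normalized counts. Over all ranked gene bodies the same medians were 3 and 21. The median ratio of observed to expected CpGs was 0.154 in members without RNA, against 0.215 in all ranked gene bodies without RNA, and 0.745 against 0.764 in those with at least 8 normalized counts. The letters TATAAA, on either strand, occurred in 28.6% of the former and 3.12% of the latter members, against 22.8% and 7.03% of all ranked gene bodies. The letters GGGCGG, on either strand, occurred in 15.7% and 69.5%, against 18.3% and 64.7%. CCAAT, on either strand, occurred in 42.4% of the members and 38.5% of all. No motif contains another, and a match is only a match of letters.

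The H3K27me3 scores of the members differed with RNA. Of the 300 members, 106 (35.3%) were above 0 in the authors' deposited column, with a median of -0.0158, against 27.6% and -0.0272 over all ranked gene bodies. Split by RNA, 53 of the 91 members without RNA (58.2%) were above 0, against 61.9% of all 2092 such gene bodies. Among members with at least 8 normalized counts 30 of 163 (18.4%) were above 0, against 17.7% of all 12442. The medians were 0.0209 against 0.0319 without RNA, and -0.0299 against -0.0367 with RNA. With RNA the members thus stood close to all gene bodies. Without RNA their upper quartile was lower, 0.0547 against 0.104. The 46 members above 0 but below 8 normalized counts had a median of 0.00364, against -0.0153 for all 3201 such gene bodies. A larger share of the members had no RNA, 30.3% against 11.8%. Only 1 column was given for this mark, so there was no replicate and no test.

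**Figure D4:**
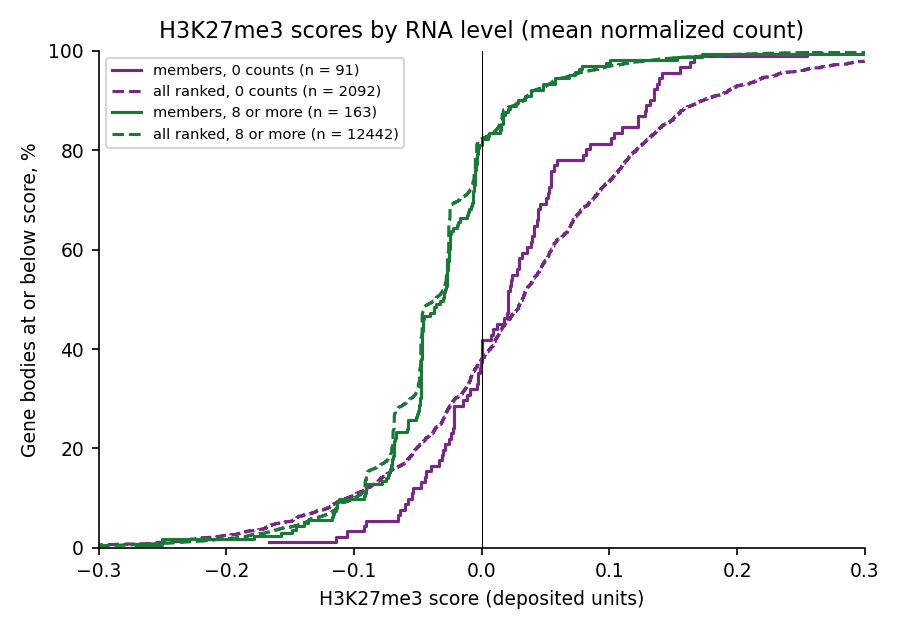
Curves give the percentage of gene bodies at or below each H3K27me3 score (x axis, deposited units) for members (solid) and all ranked gene bodies (dashed), without RNA and with at least 8 normalized counts; 227 gene bodies fall outside the x axis. The member and all-gene curves with RNA nearly coincide, those without RNA lie to the right over most of the range, and among gene bodies without RNA fewer members reach scores above 0.1.

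The highest H3K27me3 scores among the members belonged to Gtf2a1l, a germ cell form of a general transcription factor, at 0.478, and Fbxl15, an F-box gene, at 0.35. BC147527, Crispld1 and D13Ertd608e followed at 0.275, 0.255 and 0.232. Of these 5 only Fbxl15 was clearly transcribed, with 77.3, 80.38 and 60.89 normalized counts in sgControl and 74.41, 65.2 and 73.32 in sgNSD3. The lowest were Mafa, a transcription factor of beta cells and lens, at -0.271, then Thop1, a peptidase gene, and Adck5, both at -0.25, Acss1 at -0.185 and Taf1c at -0.179. Acss1 had a single low count in 1 library, and the other 4 passed the filter on RNA. Thop1 had 652.6 to 697.8 normalized counts in sgControl and 572.5 to 612.7 in sgNSD3.

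Nsd3 itself was measured in every RNA library as a check of the labels. The sgControl libraries had 14568, 14402 and 14675 normalized counts of it, and those labelled sgNSD3 had 21989, 22012 and 21837. RNA of the targeted gene was thus 1.51-fold higher under the sgNSD3 label (limma adjusted p = 5.86e-14), so the RNA does not show a loss of it, and "sgNSD3" below means the libraries labelled so. The 6 libraries held 20294828 to 21863833 recovered counts. Of the marker lists, 9 of 10 fibroblast or mesenchymal genes had at least 8 normalized counts, against 4 of 8 squamous, 3 of 5 simple epithelial, 2 of 7 immune, 2 of 4 endothelial and 2 of 4 neural genes. Epcam, Krt17, Dsg3, Cd3e and Adgre1, markers of epithelial, squamous, T cell and macrophage identity, had 0 counts in all 6 libraries. Other genes of the squamous and immune lists had RNA in every library. Over the 6 libraries, Sfn had 43.41 to 71.03 normalized counts and Perp 19.14 to 48.57. Cd68 had 60.97 to 85.17 and Lyz2 6.843 to 20.1. Other keratins of the lists were present: Krt19 had 3708 to 4226 normalized counts in sgControl and 2650 to 2706 in sgNSD3, Krt18 had 294.7 to 314.6 and 218.1 to 243.4, and Krt14 had 201.9 to 258 and 130.2 to 156.4. Summed levels were 1078613 to 1164270 in sgControl and 1221835 to 1230537 in sgNSD3 for the mesenchymal list. They were 304.3 to 386.5 and 244.9 to 263.9 for the squamous list, 4055 to 4566 and 2935 to 2951 for the simple epithelial list, 89.83 to 107.2 and 72.87 to 82.12 for the immune list, 119.8 to 144.5 and 197.4 to 236.8 for the endothelial list, and 130.9 to 150.4 and 203.6 to 223.4 for the neural list. The part of these levels in the results below was not tested.

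In RNA, a smaller share of the tested members than of all genes tested was called. The same held in each direction against the ranked gene bodies tested, and whether the shares differ was not tested. Of the 163 members tested, limma called 16 at an adjusted p threshold of 0.05 (9.82%), against 11.9% of all 18263 genes tested. With the libraries labelled sgNSD3 set against sgControl, 7 of the 16 rose and 9 fell. The higher members were 4.29% of those tested, against 5.44% of all genes and 6.52% of the 12442 ranked gene bodies tested. The lower ones were 5.52%, against 6.44% and 8.2%. In both directions, 811 of those 12442 were called higher and 1020 lower. The tested members had less RNA than the ranked gene bodies tested, with a median of 348.8 against 473 normalized counts. The part of this in the calls was not tested. The median log2 difference on the deposited scale was -0.0037 over the tested members and -0.0054 over all ranked gene bodies tested. Members took 0.854% to 0.872% of counts in sgControl libraries and 0.866% to 0.869% in sgNSD3 libraries. Without Hsp90ab1, Lama5 and Ddx5 they took 0.5128% to 0.5261% and 0.5103% to 0.5136%. Without sgControl replicate 2, sgNSD3 replicate 1 or sgNSD3 replicate 2 the higher members numbered 4 each, and without sgNSD3 replicate 1 or 2 the lower ones numbered 5 and 4. The 137 members below 8 normalized counts did not pass the filter and were not part of this test.

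The members with the most RNA were Hsp90ab1, a cytosolic chaperone gene, and Lama5, a laminin chain of basement membranes. Hsp90ab1 had 34300, 33995 and 32181 normalized counts in sgControl and 33002, 33269 and 33588 in sgNSD3. Its conditions overlapped (0.994-fold, adjusted p = 0.902 by limma). Ddx5, an RNA helicase gene, had 12887 to 13390 in sgControl and 13242 to 13655 in sgNSD3, and Xpot, which exports transfer RNA from the nucleus, 4327 to 4366 and 4312 to 4375. Neither passed the test. Slc4a2, an anion exchanger gene, Akap13, Ctsd and Psmd11, a proteasome subunit gene, made up the 8 highest. Counts were not divided by transcript length, so they do not order the genes by level per length.

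Among the higher members, Bcam, which encodes a laminin receptor of the immunoglobulin family (chromosome 7, 19756138 to 19770532), had the largest change. It had 29.25, 26.79 and 42.63 normalized counts in sgControl and 76.48, 79.59 and 72.34 in sgNSD3. All sgNSD3 libraries were above all sgControl libraries. The means were 32.89 ± 8.52 and 76.13 ± 3.63 (SD, n = 3 each), a 2.31-fold difference with a log2 fold of 1.21 ± 0.186 (SE; limma adjusted p = 3.34e-05). Lama5 (chromosome 2, 180176373 to 180225904) encodes a laminin chain that Bcam binds. It had 26005, 24557 and 24232 normalized counts in sgControl and 28108, 27509 and 28262 in sgNSD3. Again the conditions did not overlap, and the difference was 1.12-fold (log2 fold 0.17 ± 0.027, SE; limma adjusted p = 0.00031).

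Btbd10, which encodes a BTB domain protein (chromosome 7, 113315631 to 113371527), had 200.6, 228.7 and 213.1 normalized counts in sgControl and 283.2, 288.6 and 268.8 in sgNSD3. It rose 1.31-fold without overlap (limma adjusted p = 0.00246). Ankrd10 had 819.9 ± 26.7 normalized counts in sgControl and 930.9 ± 12.1 in sgNSD3 (SD, n = 3), a 1.14-fold rise (limma adjusted p = 0.0101) that was no longer called without sgNSD3 replicate 1. Arhgdig rose 1.3-fold and Znfx1, an antiviral RNA helicase gene, 1.1-fold. Iglon5, a neural adhesion gene, rose 1.26-fold, although sgControl replicate 3, at 335.9, lay within the sgNSD3 range of 330.4 to 362.4. The call of Arhgdig ended when replicate 1 or 2 of sgControl or replicate 2 or 3 of sgNSD3 was omitted. That of Znfx1 ended without replicate 2 of sgControl or any replicate of sgNSD3, and that of Iglon5 without replicate 2 of sgControl or replicate 1 or 2 of sgNSD3.

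Among the lower members, Cdc37, which hands kinases to the chaperone Hsp90 (chromosome 9, 21139431 to 21149934), had 3258, 3091 and 2958 normalized counts in sgControl and 2676, 2557 and 2557 in sgNSD3. The sgNSD3 libraries were all below the sgControl libraries. The means were 3102 ± 150 and 2597 ± 68.3 (SD, n = 3 each), a 1.19-fold fall with a log2 fold of -0.26 ± 0.037 (SE; limma adjusted p = 2.17e-05). Plcg2, a phospholipase gene of immune cell signaling (chromosome 8, 117498275 to 117635142), had 188, 201.9 and 229.4 normalized counts in sgControl and 161.2, 134.2 and 140.8 in sgNSD3. It fell 1.42-fold without overlap (log2 fold -0.50 ± 0.103, SE; limma adjusted p = 0.00176). Zbtb7b, which encodes the transcription factor ThPOK and also acts on collagen genes (chromosome 3, 89377644 to 89393673), had 1351, 1306 and 1339 in sgControl and 1151, 1146 and 1175 in sgNSD3. It fell 1.15-fold, again without overlap (limma adjusted p = 0.00123).

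The other lower members lost their calls when single libraries were left out. Mafa had 34.9 ± 4.15 normalized counts in sgControl and 19.78 ± 0.687 in sgNSD3 (SD, n = 3), a 1.76-fold fall (limma adjusted p = 0.0189). Its call was absent when sgControl replicate 1 or any sgNSD3 replicate was left out. Mageh1, an X-linked gene of the MAGE family, had 29.25, 29.66 and 22.33 normalized counts in sgControl and 8.268, 18.22 and 15.64 in sgNSD3. It fell 1.93-fold, a call that ended without replicate 1 or 2 of sgControl or replicate 1 of sgNSD3. Ctsd fell 1.08-fold, and its call ended without replicate 1 of sgControl or any replicate of sgNSD3. Cox7c, a respiratory chain subunit gene, fell 1.1-fold, and its call ended without replicate 2 or 3 of either condition. Thoc7, an mRNA export gene, fell 1.18-fold, and its call ended without replicate 3 of sgControl or replicate 1 or 2 of sgNSD3. Thop1 fell 1.12-fold (limma adjusted p = 0.0452) and was lost without any 1 library except sgControl replicate 3.

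**Figure D5:**
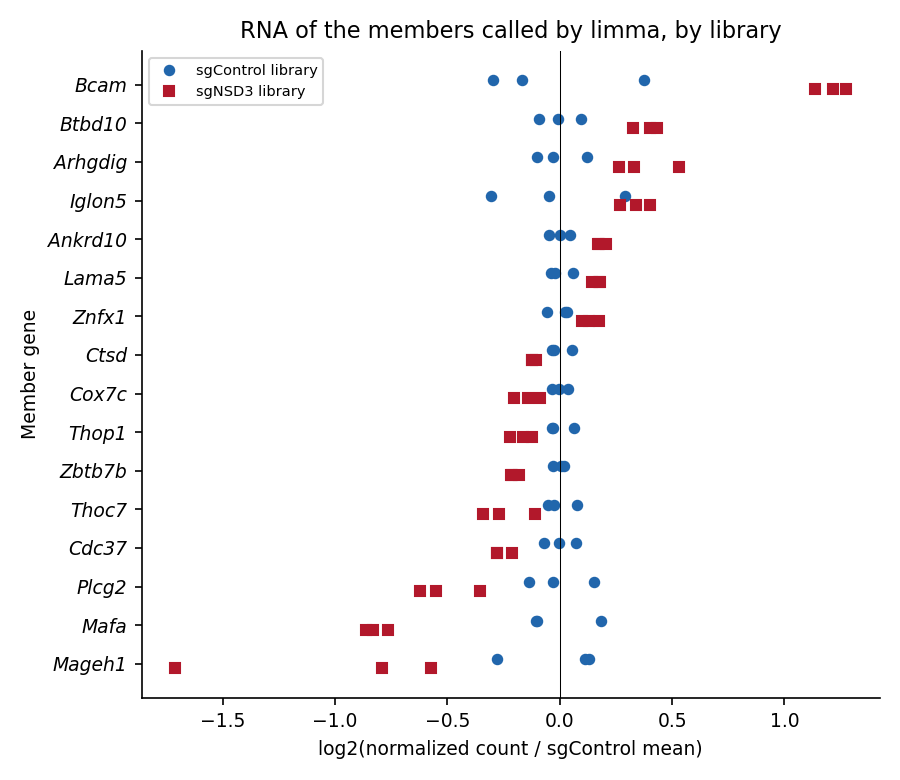
Each row is 1 of the 16 members called by limma, and each point 1 RNA library as log2 of its normalized count over the sgControl mean (circles, sgControl; squares, sgNSD3). Bcam has the largest rise and Mageh1 the largest fall, while most called members differ by less than 1.5-fold.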

How the data were processed

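RNA values are deposited by the authors on a log2 scale. HISAT2, featureCounts and DESeq2 with the mm10 build were used, per the submitters' processing notes, with no versions or settings given. The values follow the closed form of a variance-stabilising transform with a floor of 8.45, and inverting it gave whole counts (tolerance 0.05) for 100% of the values above 0. The authors' chromatin table holds 3 columns of signed scores per gene body; their reference and the libraries behind them are unstated. No IgG value was analysed here. There were 0 other value columns.

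Differences in RNA were tested with limma 3.58.1 in R 4.3.3 (with a mean-variance trend), fitted to the log2 values for all 18263 genes with a mean of at least 8 normalized counts, with Benjamini-Hochberg adjustment. A fold divides the mean normalized counts of one condition by those of the other. Log2 folds and SEs are from a limma fit to log2(normalized count + 1), a scale on which changes of low genes are understated. RNA rows were found for all 300 members, for 286 through the symbol and for 14 through RefSeq, and 299 had a RefSeq gene, 21 of them by synonym.

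The members, gene classes and named genes were chosen with earlier results of these data known. Named were the 10 lowest, 3 on each side of the limit, up to 8 called members in each direction, 5 at each end of the H3K27me3 scores, the 8 with the most RNA, up to 4 per class with at least 5 members, and Nsd3. Of 26 planned classes those with few or no members are not all described, and 9 were added after the members were seen. Alternatives were 15 other fits, a stricter threshold and 7 other choices of members.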

Additional observations from a re-analysis of the deposited data

How the results depend on the processing

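The counts of members called in RNA, 7 higher and 9 lower, ranged from 4 to 7 and from 4 to 11 when each library was left out in turn. They were 3 and 3 at an adjusted p threshold of 0.01, and 8 and 5 under quantile normalization. Without the filter on low genes they were 6 and 6. Counts over all genes, 994 higher and 1176 lower, moved too, to 645 and 707 without sgNSD3 replicate 1, 641 and 727 without sgNSD3 replicate 2, 758 and 938 without sgControl replicate 2, and 1014 and 1000 under quantile normalization. Deviations from the condition means correlated between -0.066 and 0.055 over all pairs, and sgControl replicate 3 correlated best with sgNSD3 replicate 2. With 3 libraries per condition, these correlations cannot decide whether sample numbers pair the libraries. With a replicate block by title number 7 members were higher and 11 lower, and with a replicate block by column number 6 and 8. Over all genes, the block by title number gave 1119 higher and 1333 lower, and that by column number 919 and 1086. Of the 16 calls, 6 held in every alternative fit (Bcam, Btbd10, Lama5, Cdc37, Plcg2 and Zbtb7b), not counting the stricter threshold, and 10 were lost without at least 1 library.

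The choice of members mattered more, and 197 of the 300 were kept by the mean of the columns and 228 by the higher rank within columns. Chromosome X then held 7% by the mean, 6% by sample 1, 5% by sample 2, 10.7% among the 150 lowest and 10% with all symbols kept. The share with at least 8 normalized counts was 67.6% by sample 1, 60% by sample 2 and 15.4% with all symbols kept. The H3K27me3 median was -0.0239 by sample 1, -0.0258 by sample 2, -0.0248 among the 600 lowest and 0 with all symbols kept, where 46.7% were above 0 and the median span was 4690 bases. Of tested members 1.27% were higher among the 150 lowest and 0% with all symbols kept, and 2.82% were lower by sample 2. In each case the cause was not tested. The direction of no called member reversed. The filter limits the main RNA calls to genes of at least 8 normalized counts, and the coarse scores limit the order of members.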
